A study of Perna viridis with 2 samples.

Results

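Peroxidasins and byssal peroxidases are haem enzymes, and 9 assembled genes of this kind were far more abundant in the periostracal groove of the green mussel Perna viridis than in the submarginal zone of the mantle. The 9 are every gene whose best database match is named PXDN (peroxidasin) or byssal peroxidase-like protein, that reached 10 TPM in either region and whose ratio between regions, after 1 TPM was added to both values, was 4 or more. They are 8 PXDN entries and 1 byssal peroxidase-like entry, out of 24 entries with these names and 78453 assembled genes with values. TPM is a length-adjusted abundance in which every gene is set against the sum over all genes of its profile. The members were chosen by their abundance and by this ratio, so both are given below as a description, with no test.

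The groove lies between the outer and middle folds of the mantle edge and secretes the periostracum, the organic outer layer of the shell. The submarginal zone lies further in, between the folds and the pallial line. Untreated mature animals collected from the coast, with shells 6 to 7 cm long and of unstated genotype, gave the tissue for both regions, and 6 animals were pooled in each sample. The study's description speaks of 3 biological replicates, but each region had 1 deposited profile without replicate values. No SD, n or p-value can therefore be given, and no difference has been checked against replicates. Both value columns are headed with the groove's sample name, and each table was taken for the region whose sample record lists it, so all directions rest on that record. The regions carry the names of the labels, since no marker of the groove itself was among the lists.

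Haem peroxidases use hydrogen peroxide to oxidise their substrates, and several of them can oxidise tyrosine, which lets protein chains join through dityrosine bonds. Peroxidasin is the secreted member of this superfamily that carries extracellular matrix domains. In mammals and flies it forms hypobromous acid, which links collagen IV chains in basement membranes through sulfilimine bonds. Byssal peroxidase-like proteins are named after the byssus, the bundle of threads by which mussels hold on to rock. The series title links tyrosine oxidation to the making of the periostracum, and the activity of these enzymes was not measured here.

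A single gene led the group. TRINITY_DN1036_c0_g1, a PXDN entry, had 246 TPM in groove tissue and 0.86 TPM in submarginal tissue. It was the 328th most abundant gene of the groove and ranked 33623rd in the submarginal zone. Its log2 ratio, groove over submarginal zone with 1 TPM added to both, was 7.05, which placed it 73rd among the 5800 genes that reached 10 TPM. This entry alone supplied 53.5% of the summed groove TPM of the 24 entries, against 3.76% of their sum in the submarginal zone.

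Below the leading gene, 4 members lay at about 20 to 37 TPM in groove tissue. TRINITY_DN1929_c0_g1, another PXDN, had 36.8 TPM in groove tissue and 5.69 TPM in submarginal tissue. It was the member with the highest level in the submarginal zone, and its log2 ratio of 2.50 was the smallest among the 9. With a pseudocount of 5 TPM its log2 ratio was 1.97, and 3 other members (TRINITY_DN6871_c0_g1, TRINITY_DN5956_c0_g1 and TRINITY_DN9672_c0_g1) were below it. TRINITY_DN105_c0_g1, also PXDN, had 29.2 TPM in groove tissue and 0.067 TPM in submarginal tissue. Its log2 ratio of 4.83 was the next largest after that of the leading gene. TRINITY_DN7776_c0_g1, a PXDN matching Mytilus edulis, had 20.2 TPM in groove tissue and 0.42 TPM in submarginal tissue, a log2 ratio of 3.90.

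The only entry named as a byssal peroxidase was TRINITY_DN130_c0_g1, matched to byssal peroxidase-like protein 4 of Mytilus coruscus. It had 25.5 TPM in groove tissue and 1.76 TPM in submarginal tissue, a log2 ratio of 3.26. Its level therefore fell within the range of the PXDN members in both regions. The other entries named after the byssus, 4 in number, had the opposite order. Byssal HSP-like protein 1 (TRINITY_DN4226_c0_g2), named as a heat shock protein, had 97.9 TPM in groove tissue and 148 TPM in submarginal tissue. A pair of byssal calumenin-like protein 1 entries, named after a calcium-binding protein of the secretory pathway, had 5.45 and 0.02 TPM in groove tissue against 92.2 and 33.0 TPM in submarginal tissue. Byssal protein-3 (TRINITY_DN17425_c0_g1) was low in both regions, with 1.50 TPM in groove tissue and 4.32 TPM in submarginal tissue. No foot protein or precollagen, the adhesive and fibrous proteins of the byssal thread, was found by name.

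The remaining 4 members were PXDN entries at 10 to 19 TPM in groove tissue and close to or at 0 in the submarginal zone. TRINITY_DN426_c0_g1 had 18.4 TPM in groove tissue and 0.027 TPM in submarginal tissue. TRINITY_DN6871_c0_g1 had 12.6 TPM in groove tissue and 0.087 TPM in submarginal tissue. Their log2 ratios were 4.24 and 3.64. TRINITY_DN5956_c0_g1 and TRINITY_DN9672_c0_g1 had 10.7 and 10.6 TPM in groove tissue, and both are listed at 0 in the submarginal zone. No fold is given for these 2 genes.

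**Figure D1:**
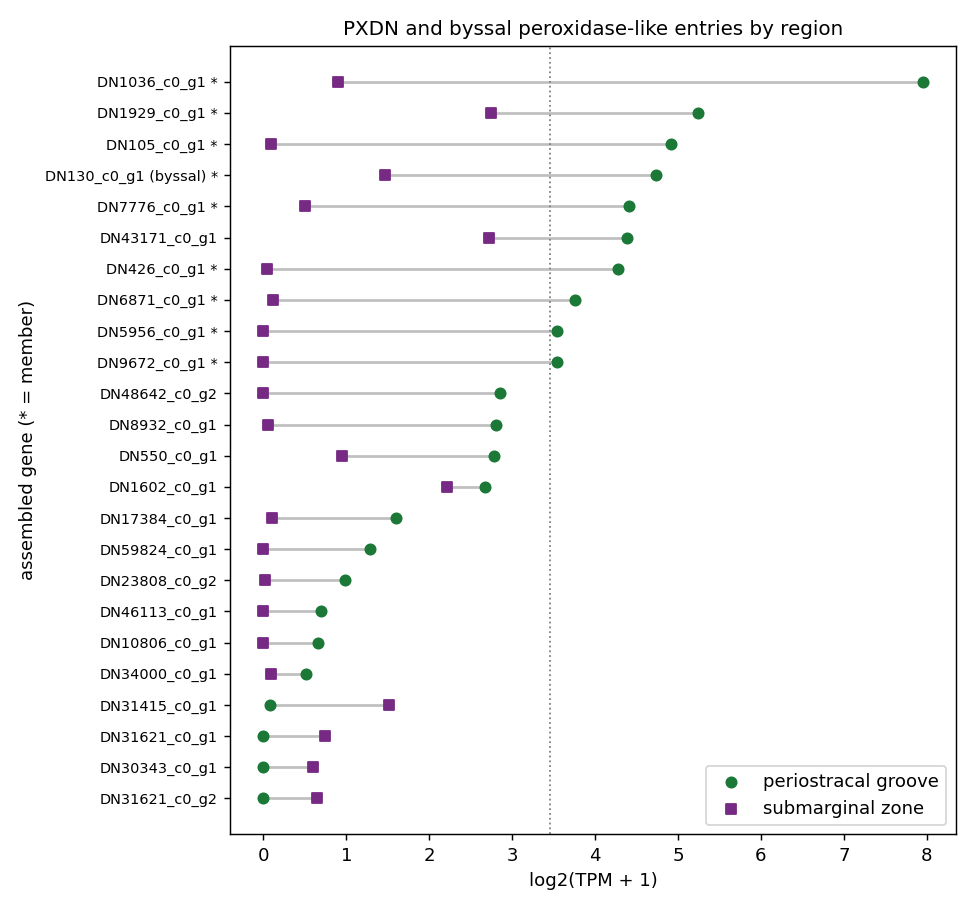
Abundance of the 24 PXDN and byssal peroxidase-like entries as log2(TPM + 1) in the periostracal groove (green circles) and the submarginal zone (purple squares), sorted by the groove value. Gene names omit the shared first word, stars mark the 9 members, and the dotted line is 10 TPM. The leading gene stands at 246 TPM in groove tissue, and 7 of the 9 members lie under 1 TPM in submarginal tissue.

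In the groove the 9 members spanned 10.6 to 246 TPM, with a median of 20.2 TPM. In the submarginal zone they spanned 0 to 5.69 TPM, with a median of 0.087 TPM, and 7 of the 9 were under 1 TPM. Together they summed to 410 TPM in groove tissue and 8.91 TPM in submarginal tissue. Without the leading gene the other 8 summed to 164 TPM in groove tissue and 8.05 TPM in submarginal tissue.

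A gene is called groove-high or submarginal-high below when it reached 10 TPM in either region and its TPM + 1 differed 4-fold or more in that direction. Of all 5800 genes with such a level, 9.45% were groove-high and 12.4% submarginal-high. Of the 24 entries, 10 reached 10 TPM, of which 9 were groove-high and 0 submarginal-high. The choice of members fixes this count, so nothing is read from it. With another scaling of the profiles (median of ratios), 790 genes were groove-high and 506 submarginal-high, and with upper-quartile scaling these counts were 684 and 575, against 548 and 719 with the deposited TPM. The median log2 ratio of the genes reaching 10 TPM moved as well, to 0.13 (median of ratios) and -0.16 (upper quartile), against -0.55 with the deposited TPM. Both scalings raised groove values against submarginal values, so all 9 members had to stay groove-high and nothing is read from that. Each of the 24 entries kept its higher region, which was likewise fixed for those higher in the groove or listed at 0 in a region. The values come from bulk tissue, in which fewer cells of a type and less RNA per cell cannot be told apart.

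**Figure D2:**
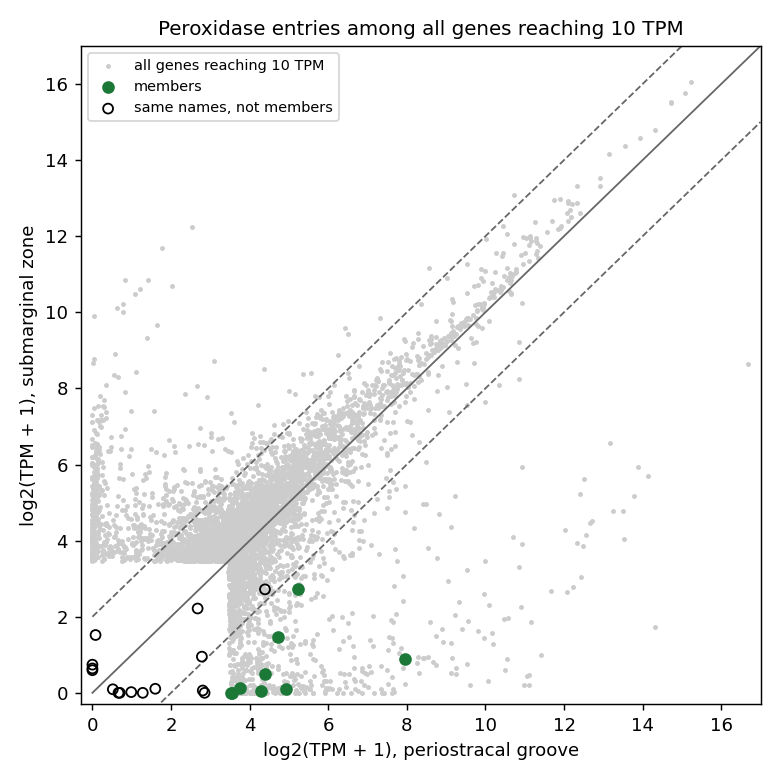
Level of each gene as log2(TPM + 1) in the groove (x axis) and in the submarginal zone (y axis), with the 5800 genes reaching 10 TPM in grey. Green points are the 9 members, open circles the 15 other entries with the same names, the solid line marks equal levels and the dashed lines 4-fold differences of TPM + 1. The members lie below the lower dashed line, with 7 of 9 under 1 TPM in submarginal tissue.

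The 15 entries with the same names that fell outside the thresholds were all PXDN, and they were low. Only TRINITY_DN43171_c0_g1 reached 10 TPM. It had 19.97 TPM in groove tissue and 5.58 TPM in submarginal tissue, a ratio of 3.19 after 1 TPM was added, which makes it the entry just outside the ratio threshold. The member just inside it was TRINITY_DN1929_c0_g1, with a ratio of 5.65. These 2 genes were alike in keeping more than 5 TPM in submarginal tissue, and with 24.9% (TRINITY_DN1929_c0_g1) and 24.4% (TRINITY_DN43171_c0_g1) they were the largest parts of the sum there.

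At the level threshold, the members just inside were TRINITY_DN5956_c0_g1 and TRINITY_DN9672_c0_g1. Just outside were TRINITY_DN48642_c0_g2, with 6.23 TPM in groove tissue and listed at 0 in the submarginal zone, and TRINITY_DN8932_c0_g1, with 6.00 TPM in groove tissue and 0.043 TPM in submarginal tissue. Both passed the 4-fold ratio once the minimum level was dropped, which made 11 entries higher in the groove. TRINITY_DN550_c0_g1 had 5.89 TPM in groove tissue and 0.93 TPM in submarginal tissue. TRINITY_DN1602_c0_g1 was the entry with the most even levels among those above 1 TPM in both regions, with 5.39 TPM in groove tissue and 3.65 TPM in submarginal tissue.

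Not every peroxidasin entry had its higher value in the groove. Of the 15, 11 had the higher value in groove tissue and 4 had it in submarginal tissue. The highest of these 4 was TRINITY_DN31415_c0_g1, with 0.057 TPM in groove tissue and 1.87 TPM in submarginal tissue. TRINITY_DN31621_c0_g1, TRINITY_DN31621_c0_g2 and TRINITY_DN30343_c0_g1 are listed at 0 in the groove and had 0.67, 0.56 and 0.51 TPM in submarginal tissue. Among the low entries higher in the groove, TRINITY_DN17384_c0_g1 had 2.03 TPM there and 0.077 TPM in submarginal tissue, and TRINITY_DN59824_c0_g1 had 1.43 TPM in groove tissue and is listed at 0 in the submarginal zone. TRINITY_DN23808_c0_g2 had 0.98 TPM in groove tissue and 0.013 TPM in submarginal tissue, and the last 3 entries, all higher in the groove, had 0.43 to 0.62 TPM there. A further 2 entries carry the full name peroxidasin and best match arthropod proteins. Both were below 1 TPM, with 0.21 and 0.16 TPM in groove tissue against 0.55 and 0.65 TPM in submarginal tissue.

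The 24 entries summed to 460 TPM in groove tissue and 22.9 TPM in submarginal tissue, a 20.1-fold difference. The 15 entries that were not members contributed 49.6 TPM in groove tissue and 14.0 TPM in submarginal tissue. The members therefore held 89.2% of the summed TPM in groove tissue and 38.9% in the submarginal zone. Their choice by ratio favours this order, so nothing is read from it. Without the leading gene the sum over the remaining 23 was 214 TPM in groove tissue and 22.0 TPM in submarginal tissue, a 9.70-fold difference.

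**Figure D3:**
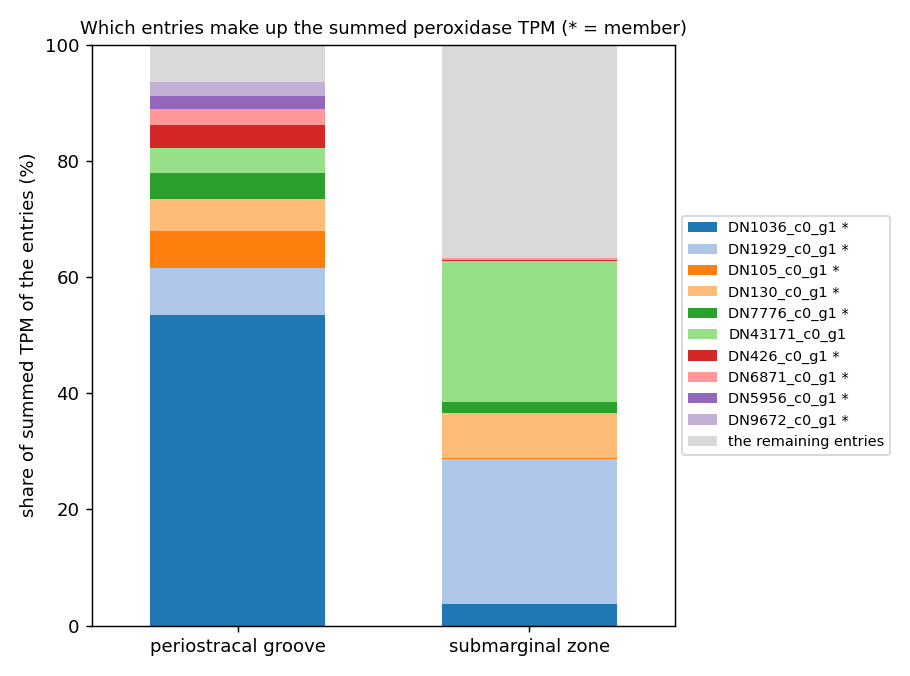
Share of the summed TPM of the 24 entries held by each of the 10 entries highest in the groove (colours, stars for members) and by the others together (grey), for the periostracal groove (left bar) and the submarginal zone (right bar). The leading gene holds 53.5% of the left bar and 3.76% of the right one, in which TRINITY_DN1929_c0_g1 and TRINITY_DN43171_c0_g1 hold 24.9% and 24.4%.

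The names are best matches of assembled fragments, so several entries can be pieces of 1 gene, and entries of similar sequence can share reads. The 9 members carry 9 different assembly cluster numbers, the part of the identifier that groups related fragments. In 1 of these 9 clusters there was a further gene, TRINITY_DN6871_c0_g2, which had no description and 0.35 TPM in groove tissue. Across all 24 entries, 1 cluster number (TRINITY_DN31621) was shared by 2 of them. Of the members, 6 best matched Mytilus coruscus and 3 Mytilus edulis. Among the other 15 entries these numbers were 10 and 5.

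Genes that make, use or remove hydrogen peroxide were compared next, because peroxidases depend on it. The list of producers held NADPH oxidases, dual oxidases with their maturation factor, and superoxide dismutases, and other oxidases were not searched for. Of its 13 genes, 4 reached 10 TPM, and 0 of these were groove-high or submarginal-high. Over all genes these shares were 9.45% and 12.4%, so with 4 genes nothing is read from the count. The dual oxidase DUOX, a membrane enzyme that releases hydrogen peroxide outside the cell, appeared as several entries. TRINITY_DN5397_c1_g1 had 10.1 TPM in groove tissue and 3.89 TPM in submarginal tissue, whereas TRINITY_DN10183_c0_g1 had 6.91 TPM in groove tissue and 9.39 TPM in submarginal tissue, an order that turned with median-of-ratios scaling. DUOXA1, a maturation factor of dual oxidase, had 5.02 TPM in groove tissue and 4.25 TPM in submarginal tissue. The most abundant producer, a Cu-Zn superoxide dismutase that turns superoxide into hydrogen peroxide, had 158 TPM in groove tissue and 195 TPM in submarginal tissue. A further 2 superoxide dismutases had 39.6 and 30.5 TPM in groove tissue against 58.6 and 62.1 TPM in submarginal tissue. The other haem peroxidase found by name, the cyclooxygenase PTGS2 of prostaglandin synthesis, had 6.11 TPM in groove tissue and 6.35 TPM in submarginal tissue.

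Enzymes that break hydrogen peroxide down were also less than 4-fold apart. Of 19 such genes, 10 reached 10 TPM and 0 were 4-fold apart in either direction, a list too short to read this count beside the shares over all genes. The most abundant glutathione peroxidase had 252 TPM in groove tissue and 274 TPM in submarginal tissue. Peroxiredoxin 5 had 97.1 TPM in groove tissue and 86.2 TPM in submarginal tissue, and PRDX6 had 43.3 and 44.7 TPM in that order. The entry katE, the symbol of catalase, had 43.1 TPM in groove tissue and 66.2 TPM in submarginal tissue. The median log2 ratio was -0.43 for the 4 producers and -0.27 for the 10 removers that reached 10 TPM, beside -0.55 for all genes reaching that level. Both medians were above 0 with median-of-ratios scaling, at 0.14 for producers and 0.29 for removers, where all genes had 0.13. The summed TPM of each list was likewise higher in submarginal tissue as deposited and higher in groove tissue with that scaling, and upper-quartile scaling turned the sum of the removers as well.

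Haem is the cofactor of every peroxidasin, and its synthesis genes were low in both regions. Of 6 found by name, 0 reached 10 TPM. The synthase of the first step, 5-aminolevulinate synthase (TRINITY_DN1669_c0_g1), had 8.95 TPM in groove tissue and 5.23 TPM in submarginal tissue. The other 5 had their higher value in the submarginal zone as deposited, but 4 of them, all except hemE, had it in the groove with median-of-ratios scaling. Among these, hemE, the symbol of uroporphyrinogen decarboxylase, had 3.17 TPM in groove tissue and 5.62 TPM in submarginal tissue, ALAD had 3.44 TPM in groove tissue and 4.61 TPM in submarginal tissue, and PPOX had 2.34 TPM in groove tissue and 3.22 TPM in submarginal tissue.

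Basement membrane genes were examined because collagen IV is the known substrate of peroxidasin in other animals. Both abundant collagen IV entries had their higher value in the submarginal zone, under each scaling run, but by little. Their log2 ratios of -0.69 and -0.71 lay near the -0.55 of all genes reaching 10 TPM. The median of this list became -0.13 with median-of-ratios scaling, where all genes had 0.13. TRINITY_DN1483_c0_g1, named COL4A, had 23.5 TPM in groove tissue and 38.5 TPM in submarginal tissue, and TRINITY_DN41929_c0_g1, with the same name, had 22.0 TPM in groove tissue and 36.8 TPM in submarginal tissue. SPARC, a collagen-binding matrix protein, had 90.1 TPM in groove tissue and 122 TPM in submarginal tissue, an order that turned with median-of-ratios scaling. Of 24 genes in this list, 5 reached 10 TPM, with 1 groove-high and 1 submarginal-high. With 5 genes nothing is read from these counts beside the shares of 9.45% and 12.4% over all genes. The laminin alpha entry LAMA1_2 (TRINITY_DN1782_c0_g2), a chain of the basement membrane network, had 3.09 TPM in groove tissue and 33.1 TPM in submarginal tissue. The nidogen-2-like entry, named after a protein that links laminin to collagen IV, had 19.6 TPM in groove tissue and 0.020 TPM in submarginal tissue. This entry, TRINITY_DN5743_c0_g1, lay at a level and a ratio (log2 4.34) like those of TRINITY_DN426_c0_g1.

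Tyrosinases, copper enzymes that also oxidise tyrosine, summed to 127 TPM in groove tissue and 84.4 TPM in submarginal tissue over 10 entries. Of the 4 that reached 10 TPM, 2 were groove-high and 0 submarginal-high. Over all genes these shares were 9.45% and 12.4%, so with 4 genes nothing is read from the count. TRINITY_DN239_c0_g1 was higher in the submarginal zone, with 31.7 TPM in groove tissue and 68.6 TPM in submarginal tissue. In the groove the summed TPM of the 24 peroxidase entries exceeded that of the tyrosinases, and in the submarginal zone it was below theirs.

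**Figure D4:**
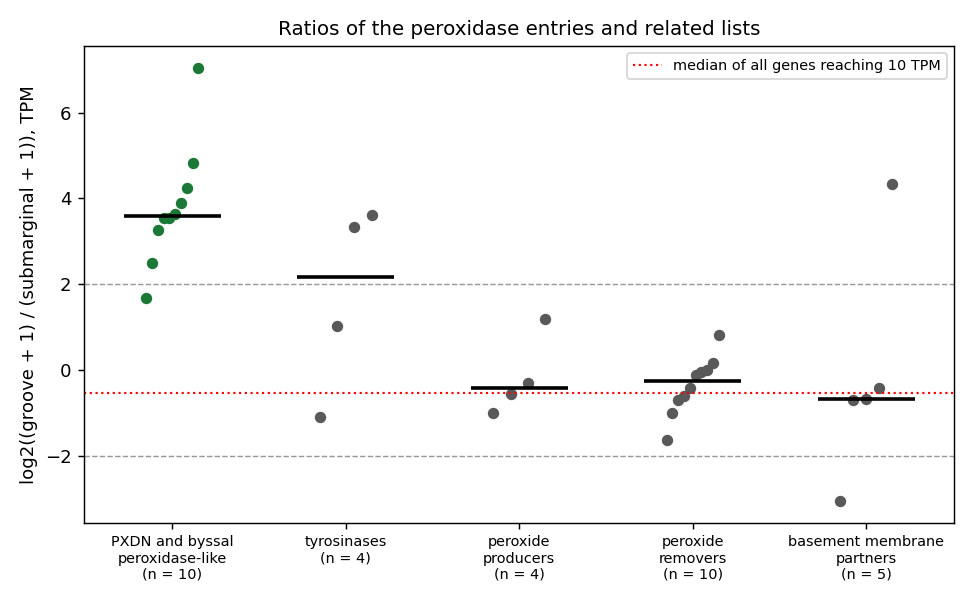
Log2 ratio of groove over submarginal zone, with 1 TPM added to both, for each gene reaching 10 TPM among the PXDN and byssal peroxidase-like entries (green) and in 4 related lists (grey). Black bars are list medians, the red dotted line is the median of all genes reaching 10 TPM (-0.55) and the dashed lines mark 4-fold. The 9 members among the peroxidase entries were chosen by this ratio. The other peroxidase entry, TRINITY_DN43171_c0_g1, and the hydrogen peroxide producers and removers lie between the dashed lines.

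Among genes with an informative product name, the 5 nearest to the leading PXDN in their levels over the 2 regions were found by Euclidean distance in log2(TPM + 1). The nearest was a sortilin-related receptor-like gene (TRINITY_DN1676_c0_g1), named after a sorting receptor, with 403 TPM in groove tissue and 0.76 TPM in submarginal tissue (distance 0.71). HEXA_B, a lysosomal hexosaminidase, had 101 TPM in groove tissue and 0.28 TPM in submarginal tissue (distance 1.39). CUBN, the endocytic receptor cubilin, had 240 TPM in groove tissue and 4.34 TPM in submarginal tissue (distance 1.52). A lysozyme named LYZ had 91.2 TPM in groove tissue and 1.78 TPM in submarginal tissue (distance 1.54). Peptidase inhibitor 16 had 741 TPM in groove tissue and 0.70 TPM in submarginal tissue (distance 1.59). All 5 were groove-high, which follows from their nearness to the leading gene, so nothing is read from it.

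Markers of other cell types differed between the dissected regions as well. The 42 entries found by names of muscle proteins include a myosin named as non-muscle. They summed to 5214 TPM in groove tissue and 15875 TPM in submarginal tissue. Paramyosin, of the thick filaments of molluscan muscle, had 1392 TPM in groove tissue and 4900 TPM in submarginal tissue. Of the 12 entries reaching 10 TPM, 2 had the higher value in the groove as deposited, a titin and a myosin named MYH9s. Among the 12, 1 was groove-high and 1 submarginal-high. Over all genes these shares were 9.45% and 12.4%, and nothing is read from the counts. The groove-high gene was a titin entry (TRINITY_DN6551_c0_g1), named after an elastic muscle protein, with 35.3 TPM in groove tissue and 0.84 TPM in submarginal tissue. The 96 genes found by names of cilia and flagella proteins summed to 511 TPM in groove tissue and 1525 TPM in submarginal tissue. Of the 36 reaching 10 TPM, 7 were submarginal-high, beside 12.4% of all genes with such a level. Nothing is read from this count, and which cells carried these genes was not tested. The 11 germ-cell genes summed to 25.1 TPM in groove tissue and 484 TPM in submarginal tissue, and TSSK, a testis-specific serine kinase, had 0.10 TPM in groove tissue and 144 TPM in submarginal tissue. These 3 lists had lower sums in the groove under each scaling run. The peroxidase members were chosen by their ratio, so nothing is read from setting them against these lists.

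Of the 21 haemocyte genes, mytilin 8, an antimicrobial peptide, had 545 TPM in groove tissue and 889 TPM in submarginal tissue. The list's 2 groove-high genes were C-type lysozymes, enzymes that other cells also make. They had 432 and 58.6 TPM in groove tissue against 10.7 and 0.25 TPM in submarginal tissue. The other 12 genes reaching 10 TPM had their higher value in submarginal tissue as deposited, and some of these turned with scaling. The 1 submarginal-high gene was a mytilin 5 entry (TRINITY_DN11907_c0_g1) with 7.06 TPM in groove tissue and 40.3 TPM in submarginal tissue. Over all genes 9.45% were groove-high and 12.4% submarginal-high, and nothing is read from the counts of this list. With the lysozymes included, the list summed to 1949 TPM in groove tissue and 2433 TPM in submarginal tissue. This order turned with median-of-ratios and upper-quartile scaling. The 67 nerve genes summed to 186 TPM in groove tissue and 249 TPM in submarginal tissue, an order that turned with median-of-ratios scaling, and the neuropeptide precursor APGW-amide-related neuropeptide had 43.9 TPM in groove tissue and 108 TPM in submarginal tissue. The acetylcholine receptor subunit CHRNA3 (TRINITY_DN46079_c0_g1) had the opposite order, with 53.9 TPM in groove tissue and 23.8 TPM in submarginal tissue. The 4 byssus entries other than the peroxidase summed to 105 TPM in groove tissue and 277 TPM in submarginal tissue. The part of cell makeup in the levels of the peroxidase members was not tested.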

How the data were processed

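Expression was measured by bulk RNA sequencing of 2 mantle regions with 1 deposited profile each. Per the labels' protocols, TruSeq libraries were made from total RNA after DNase I digestion, and fastp is named in the submitters' processing notes. Gene identifiers have the form that the assembler Trinity writes; its version and the quantifier were not given in the sources used. The authors deposited 1 TPM value per assembled gene and region. The TPM unit was read from the sums, 999875 for groove tissue and 999820 for submarginal tissue. Every value was a whole multiple of 1/300 (tolerance 0.002 on the value times 300), the step of a mean of 3 values with 2 decimals, so values were taken as the authors' means. TPM keeps no read depth, so counting intervals could not be computed.

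The value columns of both tables have the groove's name as header. Regions were assigned by the sample record that lists each table, and an exchange of the tables would turn all directions. Of 78458 genes, 5 had no value and were left out.

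Groove values were divided by submarginal values after 1 TPM was added to both, and the log2 taken; low genes change less on this scale. Calls needed 10 TPM in either region and a 4-fold difference. No test was made. The counting rule was run on simulated data with planted changes larger than 4-fold and counting noise alone. Variation between animals or dissections was not simulated, so that run does not show how often the rule errs here. Lists were patterns on product names. Members and lists were chosen with earlier results of these data known, and patterns were refined after product names were seen. Named genes were all members, up to 10 lower entries of the same names, other haem peroxidases and the most abundant genes of each list (up to 4, or 2 for other cell types), with the 5 genes nearest to the leading member. Further genes were named after their values were seen. They were TRINITY_DN5743_c0_g1 of the basement membrane list, the titin, MYH9s, mytilin 5 and C-type lysozyme entries, byssal protein-3 and a byssal calumenin-like entry. Haem peroxidases under 10 TPM and PXDN entries beyond the 10 highest were named in the same way. Other pseudocounts, minimums, thresholds and scalings were tried. No sequences or genome were used. Values were computed in Python 3.11.15 with pandas 2.3.3 and numpy 2.4.6, and plotted with matplotlib 3.10.9.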

Additional observations from a re-analysis of the deposited data

How the results depend on the processing

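With 1 profile per region and no depth, a ratio or median was called moved when it changed by more than 1.5-fold, as was a count. The 9 member ratios were recomputed under 5 pseudocount and scaling settings. A pseudocount cannot turn the sign of a ratio, and each scaling run raised the member ratios. All 45 values therefore had to stay positive, and only their size is of use. They ran from 1.64 to 8.002 on the log2 scale, with 18 moved and 4 below 4-fold. The number of peroxidase entries at least 4-fold higher in the groove was 5 with pseudocount 5 TPM and 5 with a minimum of 20 TPM, against 9. It was 8 to 11 under the other settings, and 0 were 4-fold higher in the submarginal zone under any setting run. The summed log2 ratio stayed between 4.06 and 4.83, against 4.27. The median log2 ratio of entries past the minimum, 3.59, became 6.41 with pseudocount 0.1 TPM, 2.07 with pseudocount 5 TPM, 2.85 with a minimum of 1 TPM and 1.75 with none, and it includes genes listed at 0.

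For peroxide producers the median of -0.43 turned to 0.072 with no minimum, 0.0083 with a minimum of 1 TPM and 0.14 with median-of-ratios scaling. For peroxide removers -0.27 turned to 0.29 with median-of-ratios and 0.060 with upper-quartile scaling. For basement membrane genes -0.69 turned to 0.67 with no minimum and 0.34 with a minimum of 1 TPM, and their count higher in the groove was 0 with a minimum of 20 TPM. At 2-fold, 1 producer was groove-high and 1 submarginal-high, as were 1 remover and 1 tyrosinase on the submarginal side. Tyrosinases had 1 gene higher in the groove with pseudocount 5 TPM and 1 with a minimum of 20 TPM. Their median of 2.18 became 1.30 with pseudocount 5 TPM, 0.64 with no minimum, 0.88 with a minimum of 1 TPM and 1.12 with a minimum of 20 TPM. The cause was not tested. No paired analysis was possible because each region has 1 profile.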
